A study of Homo sapiens with 6 samples.

Results

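Antisense signal in the CELF1 RIP-Seq (RNA immunoprecipitation followed by sequencing) of melanoma cells was described for 466 bins of 20 bp. The bins were selected on their immunoprecipitation (IP) reads and on the gene annotation. Each bin had more than 30 IP reads in at least 2 of the 3 IP samples, its transcript strand was opposite to a protein-coding gene over the bin centre (the host gene), and no annotated gene lay on the transcript strand there. They were 466 of the 60297 bins that passed the read threshold in at least 2 samples, and those in turn were 3.79% of the bins in any list. Bins whose starts lay at most 500 bp apart on one strand were joined, which gave 187 loci over 184 host genes.

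The IP samples came from 2 human melanoma cell lines, SK-Mel-103 (1 sample, replicate 1) and UACC-62 (2 samples, replicates 1 and 3), both grown in DMEM with fetal bovine serum and neither given a drug or a knockdown in the labels. Cells were fixed with formaldehyde and sonicated, an antibody to CELF1 (also named CUGBP1) was used for the IP, and rRNA was removed with Ribo-Zero Gold before sequencing of 40-nt reads. Per the methods, far less RNA entered the rRNA removal for an IP sample than for an input sample. The part of this difference in IP over input was not tested. The input of each sample entered as a column of its IP list, and control-antibody IPs were not analysed here. Listed IP reads came to 10958459 for the single SK-Mel-103 sample, 11333805 for the first UACC-62 sample (replicate 1) and 14436573 for the other (replicate 3), and every set of 3 values keeps this order. Each line is a single culture model, so no value speaks for melanomas in general.

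The melanocyte lineage was checked on the input reads listed over 10 marker genes. Input reads were listed for 4 of the 10 in SK-Mel-103 and for 7 of the 10 in both UACC-62 samples, with sums of 1059, 16763 and 12367 reads. PMEL, TYRP1 and GPR143 had no listed input in any sample, and TYR, DCT and S100B had none in SK-Mel-103. Input was listed only in bins called in the IP, so a gene without listed input can still have RNA in the cells. Fibroblast (5 genes), keratinocyte (4 genes) and leukocyte (3 genes) markers reached at most 1 gene of each list, with summed input between 0 and 251 reads.

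CELF1 is a cytoplasmic and nuclear RNA-binding protein that takes part in splicing, translation and the decay of mRNAs with GU-rich elements in their 3′ UTRs. Antisense transcripts can start at the promoter of the host gene on the opposite strand, can run on past the end of a neighbouring convergent gene, or can come from a mitochondrial strand that is transcribed as a whole. Reads can also be placed opposite to a gene because a retrocopy, a repeat or a fragment of ribosomal DNA lies there in that direction, and then the RNA need not come from that place. The bins were therefore set against the rest of the genome before their read counts were read.

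The first set of bins shows what the antisense loci with the most reads are made of. Each stretch of this set and the next has 30 bases, is written 5′ to 3′ on the transcript strand of GRCh37 and lies in the bin with the highest reads of its locus or in the 20 nt on each side. Capitals mark the bases shared, as 1 exact run, with the human ribosomal RNA unit (18S, 5.8S and 28S rRNA with their spacers) in reverse complement.
HFM1, chr1:91852841-91852870, plus strand: CAATGATAGGAAGAGCCGACATCGAAGGAT
PDE3A, chr12:20704391-20704420, minus strand: AACGGCCATGCACCACCACCCACGGAATCG
GCNT1, chr9:79186671-79186700, minus strand: GCGGGGGACCGGCTATCCGAGGCCAACCGA
ANKRD30BL, chr2:133012571-133012600, plus strand: tGTCAATTCCTTTAAGTTTCAGCTTTGCAA
FAM20B, chr1:178995246-178995275, minus strand: gggcgGGGGTCGCGCGCCCTCCCCCgcccc

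In the next pair the capitals mark a run shared with the rRNA unit in the same sense.
MYO1D, chr17:31149522-31149551, plus strand: CCGCTTCTTCGGTTCCCGCCTCCTCCCCGT
UNC45B, chr17:33478281-33478310, minus strand: gctcgtgtGGGGCCCAAGTCCTTCTGATCG

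The last pair shares no such run. The first has 30 bases and had no other place in the genome, and the second, slightly shorter and from another bin than the strongest, lies in a locus with many GU repeats and has its exact GU-rich element in capitals.
CLASP1, chr2:122287736-122287765, plus strand: tgccgggagggtttgggagccggggaggcc
SLC18A2, chr10:119028528-119028556, minus strand: atgtgtgtaTGTGTGTGTGTatgcgtgtg

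Every bin was placed in 1 of 6 classes by its sequence of 60 nt (the bin with 20 nt on each side). Mitochondrial bins were 68 of 466 (14.6%), against 0.362% of all passing bins. A run of at least 16 nt shared with the rRNA unit in reverse complement was held by 95 bins (20.4%), against 0.527% of all passing bins. A run in the same sense was held by 26 bins (5.58%), against 0.375%. Of the rest, 126 bins matched over 20 other places of the genome, 44 matched 1 to 20 other places and 107 matched none. An exact copy elsewhere of the central 32 nt was found for 203 of the 466 bins (43.6%), against 12.6% of all passing bins. In total 279 bins (59.9%) had another place in the genome at 95% identity over at least 40 nt, and the alignment allowed reads with several places. No other place means none at this cutoff and need not mean unique sequence. Of the 3 bins of MTRNR2L1, a nuclear copy of the mitochondrial 16S gene, 2 fell in that class.

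The reads were concentrated in few loci. The sum over the antisense bins was 99460, 83437 and 131567 IP reads, or 0.908%, 0.736% and 0.911% of the listed total. The 12 loci with the highest scaled reads (each sample scaled to its listed total) held 68.2%, 62.8% and 67.3% of them. Of the 187 loci 142 were a single bin, 33 had 2 to 9 bins and 12 had 10 or more, and the last group held 189 bins. The bins were spread over both strands, with 235 on plus and 231 on minus. The 2 bins on chromosome Y are counted here and described no further.

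**Figure D1:**
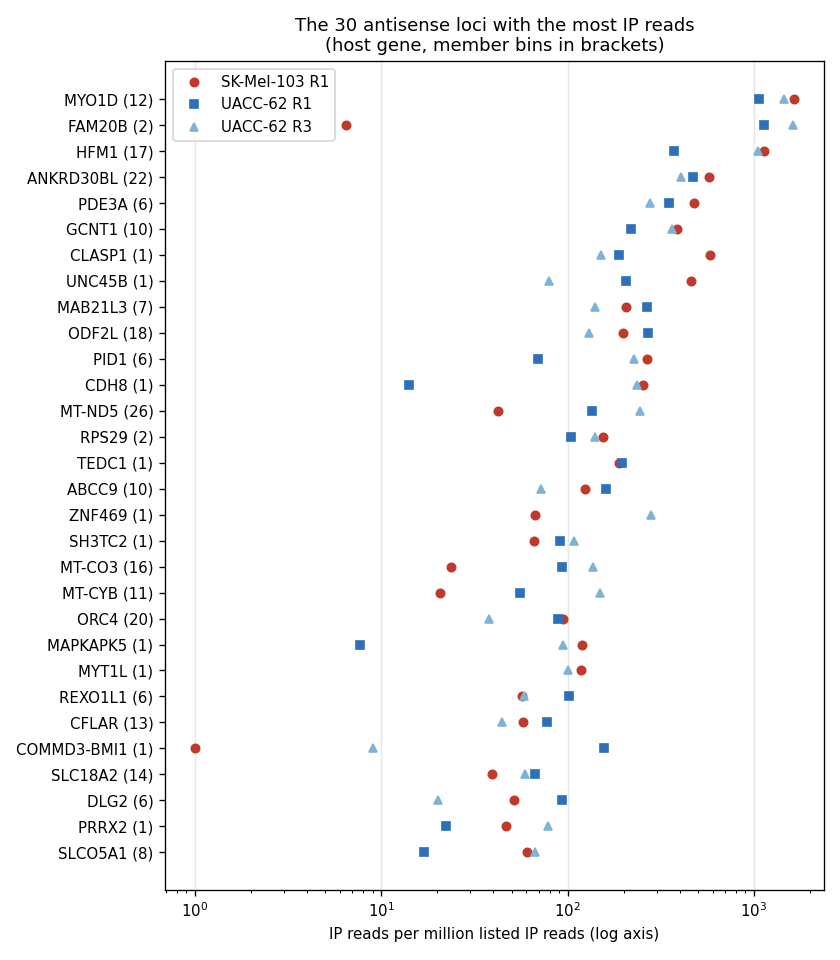
RPM, IP reads scaled to the listed IP total (log axis) of the 30 antisense loci with the most reads, 1 point for each of the 3 IP samples, each locus named by its host gene with its number of member bins. MYO1D, HFM1, ANKRD30BL, PDE3A and GCNT1 are high in all 3 samples, while FAM20B lies far lower in SK-Mel-103 and TEDC1, ZNF469 and MYT1L lack a point where they were not listed.

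Passing in every sample was about as frequent as elsewhere. Of the 466 bins, 218 (46.8%, 95% Clopper-Pearson interval 42.2 to 51.4%) had more than 30 reads in all 3 samples, against 51.2% of all passing bins. The classes differed: 79 of 126 bins with over 20 other places and 58 of 95 with a reverse rRNA run passed in all 3, but 5 of 68 mitochondrial bins did. The interval covers counting error only, and neighbouring bins of a locus are not independent.

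IP was compared with input as log2 of IP over input, with the reads of a bin divided by the listed total of their column after adding 1 read to each. For SK-Mel-103 the median over the antisense bins was 0.93, and for UACC-62 it was 1.77 (mean of both replicates per bin, whose own medians were 1.75 and 1.78). Over all passing bins these medians were 0.95 and 1.16. The antisense medians depended on which bins and samples were taken. Without mitochondrial bins they were 2.11 and 2.20, without bins with another place 2.55 and 2.03, and with members chosen without UACC-62 replicate 1 they were 3.13 and 2.54. SK-Mel-103 was thus close to UACC-62 under the first choice and above it under the other 2. The last of these required every bin to pass in SK-Mel-103. Other settings went both ways. SK-Mel-103 stayed below UACC-62 at over 20 reads (0.56 and 1.27) and without mitochondrial and rRNA-run bins (0.73 and 1.84). At over 100 reads it was above (4.15 and 3.29). Values above 0 were found in 282 of 443 antisense bins listed in SK-Mel-103 (63.7%, against 70.9% of all passing bins), in 315 of 454 in UACC-62 replicate 1 (69.4%, against 68%) and in 334 of 455 in UACC-62 replicate 3 (73.4%, against 73.2%). The mitochondrial bins weighed on these shares, with 0 of 64 above 0 in SK-Mel-103. Outside mitochondria the shares were 74.4%, 81.1% and 77.3% of the antisense bins, against 71.1%, 68.2% and 73.3% of all passing bins. Of 420 antisense bins listed in all 3 samples, 25 (5.95%, against 7.52% of all passing bins) had one sign in SK-Mel-103 and the opposite sign in both UACC-62 samples. The upper quartiles were 4.53, 3.70 and 3.89, against 2.07, 2.39 and 2.30 over all passing bins, so the upper part of the antisense values reached higher. No input read at all was listed for 31 of 466 bins (6.65%), against 0.347% of all passing bins. Since the members were selected on IP reads, these ratios are a description.

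The classes differed in this ratio. Bins with a reverse rRNA run had medians of 5.13, 3.75 and 4.15, and 89 of 92, 90 of 91 and 83 of 93 listed bins lay above 0. Bins with no other place and no rRNA run had medians of 3.30, 3.13 and 3.56. Bins with over 20 other places lay lower, at 0.24, 1.32 and 1.23. Mitochondrial bins lay below input, at -3.07 and -1.46, or level with it, at 0.05 in UACC-62 replicate 3. Bins with a same-sense rRNA run differed between samples, with medians of 2.98, 2.85 and 0.07, and their input reads were 2722, 4015 and 16060.

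**Figure D2:**
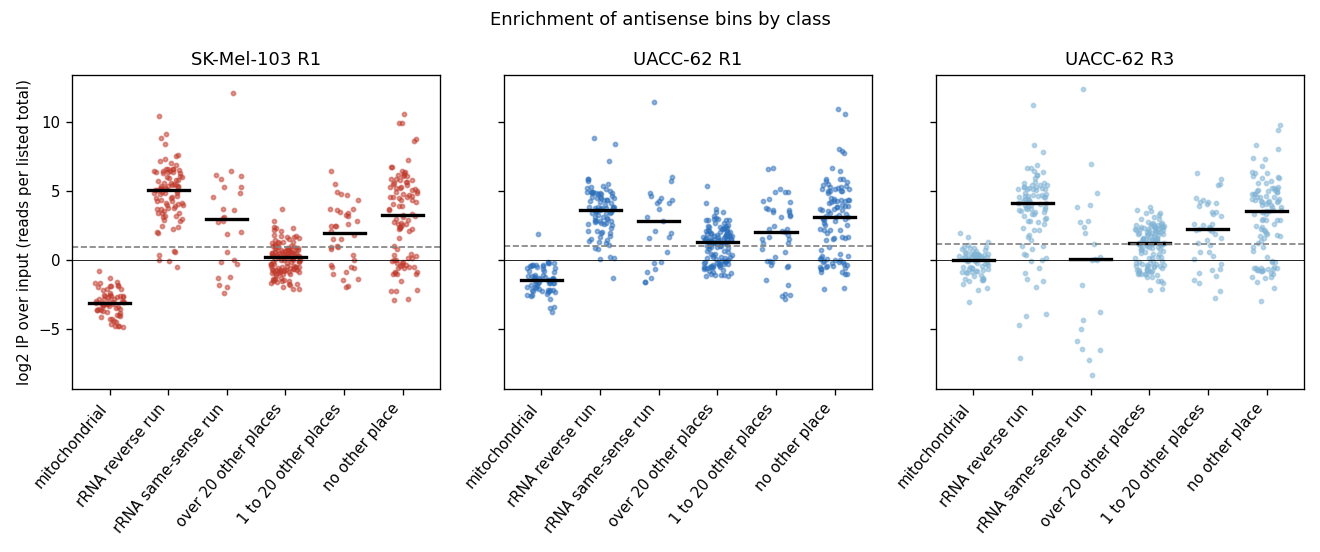
Log2 IP over input of each antisense bin by class in each IP sample, with 1 point per listed bin, a black bar at the class median and a dashed grey line at the median of all passing bins. Reverse rRNA runs sit highest with medians of 5.13, 3.75 and 4.15, and mitochondrial bins sit lowest with -3.07, -1.46 and 0.05.

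The rRNA unit is transcribed as 1 precursor in the order 18S, 5.8S and 28S, and the mature rRNAs are the most abundant RNAs of a cell. It was located in GRCh37 on the contig that holds the 5.8S sequence, and distances were counted from the start of 5.8S. The 95 reverse bins fell in 25 loci, 31 of them on the 18S side and 64 on the 28S side, between -5134 and 6604 bases. Their shared runs had a median of 33 nt, and 24 bins matched over the whole 60 nt. The 26 same-sense bins fell in 11 loci, 25 of them on the 28S side.

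HFM1, a DNA helicase of meiosis, carried a reverse rRNA locus with many reads in all 3 samples. Its 17 bins in an intron had 12460, 4229 and 15255 IP reads and 203, 366 and 367 input reads, so IP was above input in each sample. The log2 ratio was 5.56 for SK-Mel-103 and 4.02 ± 0.92 (SD, n = 2) for UACC-62, and reads of the host strand in the same bins were 2247, 1374 and 681. The ANKRD30BL locus of 22 bins had 6301, 5342 and 5872 IP reads and 105, 197 and 1226 input reads. Its log2 ratio in UACC-62 replicate 3 (1.56) was well below that of SK-Mel-103 (5.52), and input was highest there. PDE3A, a cyclic nucleotide phosphodiesterase, had 6 intronic bins with 5227, 3963 and 3978 IP reads and 172, 233 and 221 input reads, with similar IP reads in both UACC-62 samples.

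GCNT1, a glycosyltransferase that branches O-glycans, had 10 bins with 4211, 2487 and 5214 IP reads against 160, 251 and 160 input reads. PID1, an adaptor protein, had 6 intronic bins with 2934, 783 and 3263 IP reads against 25, 39 and 265. In both, UACC-62 replicate 1 had the fewest IP reads. By log2 IP over input it was lowest for GCNT1 (3.15), but UACC-62 replicate 3 was lowest for PID1 (2.92). SLCO5A1, of the organic anion transporter family, had 8 bins with 665, 192 and 962 IP reads and 10, 11 and 32 input reads. TNPO2, a nuclear import receptor, had a 2-bin locus in its 3′ UTR with 287, 179 and 440 IP reads and 7, 4 and 7 input reads. Its lowest log2 IP over input of the 3 samples (4.80) was the highest among loci of 2 or more bins, and its run of 24 nt was a repeat of GGAC.

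FAM20B, a kinase of proteoglycan synthesis, had few reads in SK-Mel-103 and many in UACC-62. Its 2 bins near the start of the gene had 71, 12849 and 23260 IP reads and 13, 1351 and 1379 input reads. The stronger of the 2 was not listed in SK-Mel-103 and had 12727 and 23183 IP reads in UACC-62. Its sequence was 95% G and C, and its reverse rRNA run was 20 nt. Low sequence complexity moves with a short run of this kind, and its part in the match was not tested.

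MYO1D, an unconventional myosin, was the locus with the most reads and shared its run with rRNA in the same sense. Its 12 intronic bins had 17942, 12105 and 20993 IP reads against 1598, 2518 and 2355 input reads. The strongest bin had 5923, 3122 and 8907 IP reads and no listed input read in any sample. The host strand of the same bins had 4448, 41682 and 20188 IP reads, so the antisense reads were more numerous in SK-Mel-103, fewer in UACC-62 replicate 1 and about level in UACC-62 replicate 3. UNC45B, a chaperone of muscle myosin, had 1 bin with 5064, 2324 and 1148 IP reads and 43, 31 and 48 input reads. DLG2, a synaptic scaffold protein, had 6 bins with 563, 1061 and 291 IP reads but 958, 1394 and 8854 input reads, below input in every sample.

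Mitochondrial 12S and 16S rRNA genes, which are no members of the set, were read on both strands for comparison. Opposite to the 16S gene, 1118, 1127 and 2344 IP reads stood against 171, 298 and 160 input reads. On its own strand, 149, 265 and 310 IP reads stood against 429, 839 and 2023. The 12S gene ran the same way, with 475, 543 and 985 IP reads against 105, 158 and 91 opposite to the gene and 8, 53 and 49 against 18, 411 and 662 on its strand. The nuclear MTRNR2L1, a humanin-like copy of the 16S gene, was a member locus of 3 bins with 255, 292 and 398 IP reads and 23, 36 and 16 input reads.

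The mitochondrial members lay opposite to genes of the respiratory chain on the heavy-strand transcript. The light strand, on which these reads lie, is transcribed as a long precursor whose sole protein-coding gene is MT-ND6. The 6 loci covered MT-CO1 (8 bins), MT-CO3 (16 bins), MT-ND4 (6 bins), MT-ND5 (26 bins) and MT-CYB (11 bins and 1 bin). Opposite to MT-ND5, 461, 1527 and 3534 IP reads stood against 3602, 5438 and 3849 input reads, below input in all 3 samples. MT-CO3 had 259, 1054 and 1975 IP reads against 1337, 1389 and 791, above input in UACC-62 replicate 3 alone, and MT-CYB (11 bins) had 226, 629 and 2165 against 1239, 1760 and 1406. In all 3, SK-Mel-103 was the lowest sample and UACC-62 replicate 3 the highest. Between the MT-ND6 end and MT-CO1, 39.1%, 69.1% and 79.2% of the 20-bp bins were listed on this strand, so listed bins covered much of the region in UACC-62. The lists can carry another mitochondrial reference sequence than the one used here, and no mitochondrial position is given.

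Loci with over 20 other places were the largest class by bins and lay mostly in 3′ UTRs (116 of 126 bins). ODF2L had 18 bins with 2178, 3049 and 1890 IP reads and 1295, 867 and 352 input reads. MAB21L3 had 7 bins with 2264, 3009 and 2016 IP reads and 1276, 870 and 342 input reads. Lower values in SK-Mel-103 than in UACC-62 were also seen for ABCC9 (10 bins, log2 0.24, 1.36 and 1.18), a subunit of potassium channels, and for CFLAR (13 bins, log2 0.71, 1.81 and 2.09), an inhibitor of death receptor signalling. ORC4, a subunit of the origin recognition complex, had 20 bins with 1039, 1004 and 544 IP reads, below the input of 1777, 1180 and 601, and its host strand had 4098, 5291 and 3464 IP reads in these bins. A read with so many places cannot be tied to 1 of them, and which copy gave these reads cannot be told apart. The alignment kept up to 20 places per read, so the same reads can be counted at several of these loci. Their like order of samples is therefore not a set of separate observations.

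A further group had few other places and a known parent sequence. Loci opposite to ZNF587B (4 bins), COPA (3 bins), DTWD2 (2 bins) and TRIM2 (1 bin) began 169, 545, 464 and 284 bp after the annotated end of the pseudogenes FKBP1AP1, SUMO1P3, PTMAP2 and ANXA2P1. ZNF587B had 432, 341 and 644 IP reads against 168, 142 and 139 input reads, above input in all 3 samples, and its bins matched FKBP1A, which encodes an immunophilin. COPA, a subunit of the vesicle coat, had 146, 48 and 163 IP reads in its antisense bins against 260, 223 and 231 input reads, below input in all 3.

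The 107 bins with neither another place nor an rRNA run lay in 87 loci, 83 of them a single bin. Of these 83, 71 had no listed bin next to them on the same strand, 47 were listed on the host strand too and 18 had no input read in any list. CLASP1, which binds growing microtubule ends, had 1 bin with 6396, 2126 and 2187 IP reads and 10, 7 and 4 input reads. Its log2 IP over input was 8.81, 7.90 and 8.08, and the host strand had 1191, 273 and 194 IP reads in the same 20 bp. CDH8, a cadherin, had 1 bin with 2795, 159 and 3409 IP reads, and MAPKAPK5, a stress-activated kinase, had 1 with 1302, 87 and 1358. Both were lowest in UACC-62 replicate 1, and the 2 loci share a run of 18 nt.

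Some single bins with many reads were absent from 1 sample only. TEDC1, which acts on centriolar tubulin, had 2057 and 2216 IP reads in SK-Mel-103 and UACC-62 replicate 1 and was not listed in UACC-62 replicate 3. MYT1L, a neuronal transcription factor, had 1297 and 1449 reads in SK-Mel-103 and UACC-62 replicate 3 and was not listed in UACC-62 replicate 1, and ZNF469, whose bin had a reverse rRNA run of 16 nt, had 731 and 4069 in the same 2 samples. None of the 3 bins had a listed input read. At each of them 1 UACC-62 replicate was listed with SK-Mel-103 and the other replicate was not. Bins opposite to ALMS1 and GYG2, on different chromosomes, had equal IP reads, 47 and 37 with none listed in UACC-62 replicate 3, and input reads of 177 and 67 against 175 and 67.

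Run-on past a gene end was examined through the nearest gene end upstream on the transcript strand. Of the 187 loci, 30 (16%, 95% Clopper-Pearson interval 11.1 to 22.1%) began within 5 kb of one, 25 of them nuclear. No share for other bins is set beside this. The share of the 20-bp bins in between that were listed shows how far called bins filled the gap. An unlisted bin can still hold reads, so a low share cannot show that reads were absent there. Of 39 nuclear loci within 10 kb, 1 had no whole bin in the gap and 25 had at most 2% of the gap listed in every sample. At 6 loci, at least 20% of the gap was listed in both UACC-62 samples, and at 3 loci in SK-Mel-103.

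**Figure D3:**
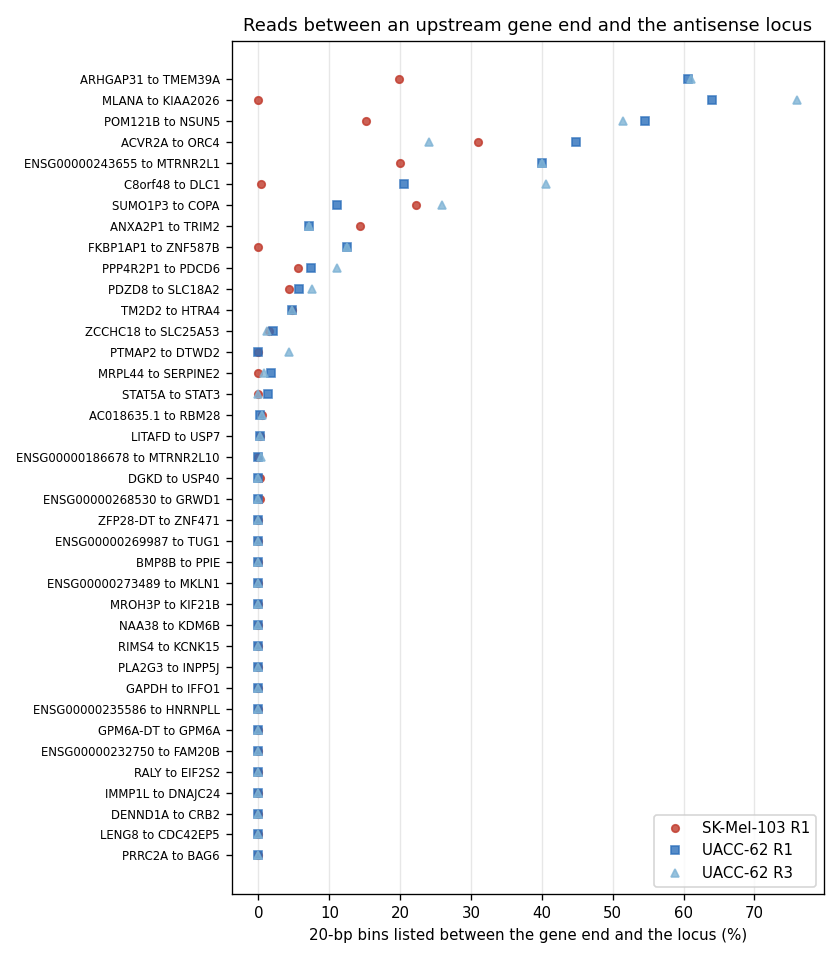
Share of 20-bp bins listed between the end of the nearest upstream gene and the antisense locus, for nuclear loci within 10 kb, with 1 point for each IP sample. The gap from MLANA to the locus opposite to KIAA2026 is 0% listed in SK-Mel-103 and 64.0% and 76.0% listed in UACC-62, and most other gaps are near 0% in all 3 samples.

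The locus opposite to KIAA2026 began 515 bp after the end of MLANA, which encodes a melanosome antigen of melanocytes. Its 7 bins, at chr9:5911121-5912100, were not listed in SK-Mel-103 and had 372 and 407 IP reads with 20 and 17 input reads in UACC-62. Of these bins 3 had 1 to 20 other places in the genome, and the highest number for a bin of the locus was 72. Part of its reads can therefore have another origin. The UACC-62 replicates had a mean log2 ratio of 3.90 ± 0.13 (SD, n = 2). MLANA itself had 28, 674 and 1734 listed IP reads and 18, 826 and 926 listed input reads. The locus was thus listed in the line with more MLANA reads, in bulk RNA where fewer cells of a kind and less RNA per cell cannot be told apart. It was the one locus whose host or upstream gene was in the lists looked up: of 10 melanocyte genes MLANA lay upstream, and none of 14 cell cycle genes, 17 RNA-binding protein genes and the 5 fibroblast, 4 keratinocyte and 3 leukocyte genes was a host or lay within 10 kb upstream.

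A similar order of samples was seen at TMEM39A, 8300 bp after ARHGAP31. Its bin had 4, 59 and 60 IP reads, 19.8%, 60.6% and 61.1% of the gap was listed, and ARHGAP31 had 334, 1982 and 2961 IP reads. Opposite to DLC1, 4884 bp after C8orf48, the bin had 41 and 51 IP reads in UACC-62 and was not listed in SK-Mel-103. In that gap 0.41%, 20.5% and 40.6% of the bins were listed, and C8orf48 had 0, 205 and 453 IP reads. NSUN5, 665 bp after POM121B, had 14, 40 and 42 reads in its bin with 15.2%, 54.5% and 51.5% of the gap listed. POM121B itself had only 0, 0 and 4 IP reads. The bin had 2 other places in the genome and matched transcripts of POM121 and POM121C. SERPINE2 had 2 bins with 93 and 69 IP reads in UACC-62 alone, 7950 bp after MRPL44, with at most 1.76% of that gap listed. The host strand had 49, 1998 and 2444 IP reads in these bins, far more than the antisense strand and also highest in UACC-62.

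SLC18A2, the vesicular monoamine transporter, had the most bins of the loci whose commonest class was no other place (10 of its 14 bins, the other 4 having 1 to 20 places). Its 14 intronic bins lay 7425 bp after the end of PDZD8, a lipid transfer protein of the endoplasmic reticulum, at chr10:119028181-119029360. They had 433, 759 and 856 IP reads and 17, 11 and 4 input reads, with log2 IP over input of 4.22, 5.83 and 6.72, and all 3 samples were well above input. The host strand had 0, 13 and 9 IP reads in the same bins, and 4.31%, 5.66% and 7.55% of the gap to PDZD8 was listed.

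**Figure D4:**
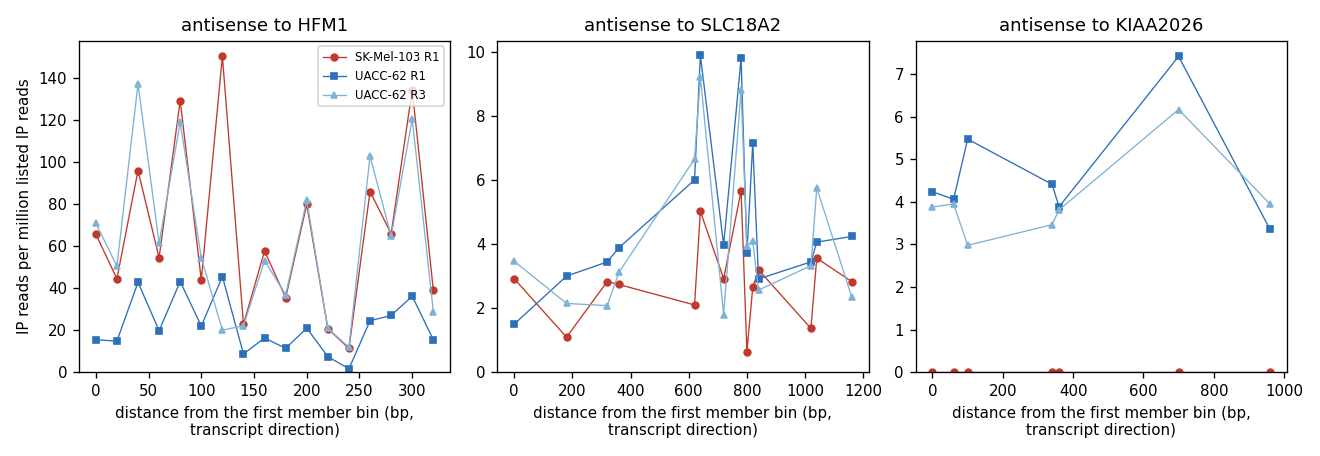
RPM, IP reads scaled to the listed IP total, in each member bin of 3 loci, by distance from the first bin in transcript direction, with a line for each IP sample and 0 where a bin was not listed. The HFM1 locus has the 3 samples peaking in many of the same bins, the SLC18A2 locus has reads in all 3, and the KIAA2026 locus has reads in the UACC-62 samples alone.

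Position in the host gene is given as counts, with no matching share over all passing bins to set beside them. Introns held 187 of the 466 bins (40.1%, 95% Clopper-Pearson interval 35.6 to 44.7%), 3′ UTRs held 144 (30.9%), coding regions 82 (17.6%), of which 68 were mitochondrial, and 5′ UTRs 12. A further 41 bins lay in a host gene outside its coding transcripts. Counted by locus, introns had 100, 3′ UTRs 52, coding sequence 19, 5′ UTRs 11 and places outside coding transcripts 5, and 22 nuclear loci began within 1 kb of the annotated start of the host. Among these was SSH3, a cofilin phosphatase, whose bin in the 5′ UTR had 442, 381 and 526 IP reads, no input read and a similar number on the host strand (444, 262 and 468). Its sequence shared a reverse rRNA run of 18 nt.

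The same 20 bp were listed on the host strand for 350 of the 466 bins (75.1%, 95% Clopper-Pearson interval 70.9 to 79.0%). A matching share with both strands listed over all passing bins is not given. Where both strands were listed, antisense IP reads exceeded sense IP reads in 209 of 287 bins in SK-Mel-103, 236 of 312 in UACC-62 replicate 1 and 219 of 294 in UACC-62 replicate 3, with median ratios of 2.75, 3.04 and 3.98. Since the members were selected for high antisense reads and not for sense reads, a ratio above 1 is in part fixed by the rule. By class the medians were 6.76, 3.23 and 12.8 in bins with a reverse rRNA run, 6.67, 8.33 and 13.4 in those with 1 to 20 other places and 3.50, 4.74 and 2.87 in those with over 20. Bins with no other place, of which 58 of 107 were listed on both strands, had medians of 1.71, 1.33 and 1.44. Lower medians were found in 1 sample each for mitochondrial bins (0.73 in SK-Mel-103) and same-sense rRNA bins (0.91 in UACC-62 replicate 3).

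GU-rich elements (GREs), to which CELF1 binds, were searched as UGUGUGUGUGU and UGUUUGUUUGU with up to 2 mismatches on the transcript strand alone, within 60 nt. They were found at 29 of 466 bins (6.22%, 95% Clopper-Pearson interval 4.21 to 8.82%), against 6.62% of all passing bins, so the share was near that of the rest. No bin with an rRNA run held one, against 7 of 44 bins with 1 to 20 other places and 9 of 107 with none. SLC18A2 held 7 of the 29 bins, among them 2 with the exact element shown above. Elements overlapping between neighbouring bins were counted for each bin.

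Base composition moved with the classes. G and C made up 50.3% of the antisense bins on average, against 40.7% over all passing bins, and U made up 26.1% against 32.1%. Same-sense rRNA bins had 69.0% G and C, reverse rRNA bins 57.4%, bins with no other place 57.5% and bins with over 20 other places 41.0%. The part of base composition in these reads was not tested.

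At the read threshold, 14 members had exactly 31 reads in their second-highest sample and 15 bins that met the rest of the rule had exactly 30. The members just inside had median log2 IP over input of -0.17, -0.52 and -0.11, and the bins just outside -0.74, -0.33 and -0.02. Among those inside were 2 bins of SLC18A2 (31, 39 and 30, and 12, 34 and 31 reads) and a bin opposite to ITPK1 (76, 31 and 16), and among those outside were bins opposite to SAR1A (30, 21 and 30) and COL6A2 (59, 13 and 30). Mitochondrial bins made up 3 of the former and 4 of the latter.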

How the data were processed

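RIP-Seq of CELF1 was analysed from 3 lists of bins, 1 for each IP sample. Per the labels and the methods, the authors aligned 40-nt reads to GRCh37 with TopHat (first-strand setting, at most 20 places kept per read), and bins of 20 bp were called with Piranha against the input. The submitters' processing notes name TopHat2 2.0.4, Bowtie 0.12.7 and SAMtools 0.1.16, which are not the versions of the published methods. The deposited values are read counts of the IP in each bin, without normalization, and only bins that passed the caller are listed, so IP over input is conditional on a call. The authors also deposited a p-value for every bin, below 0.05, and the methods give that threshold as a false discovery rate. The last column, deposited by the authors as the covariate, is a ratio of input reads to a fixed number, with 0.01 for no input. Dividing it by its smallest step gave input reads, and every value lay within 0.05 of a whole number. Listed input reads were 8453517, 10161917 and 8900292.

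The transcript strand was taken as the reverse of the listed strand. Genes came from GENCODE version 44 mapped to GRCh37. The region of a bin in its host was the first that applied of 3′ UTR, coding sequence, 5′ UTR and intron, and a locus took the class of most of its bins. Log2 IP over input used a pseudocount of 1 read and listed totals, in bins listed in the sample. Other places were found with BLAST 2.17.0 (at least 40 nt at 95% identity or more of the bin with 20 nt on each side), exact 32-nt copies and rRNA runs with Python 3.11.15. The rRNA unit was the GRCh37 contig sequence from 7 kb before to 7 kb after the 5.8S match, and its sides were named by the known order of the rRNAs. Repeat families were not annotated. Scans were tested on simulated data.

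No test between groups was run, since there was 1 sample against 2 and members were selected on IP reads. Shares carry Clopper-Pearson 95% intervals, for counting error only. The members, lists and classes were chosen with earlier results of these data known. Named loci were the 12 with the highest scaled reads, the 8 of at least 2 bins with the highest lowest log2 IP over input, the 10 with the most bins, those at the read threshold and those touching a gene list. Other loci named were chosen after their values were seen. The alternatives were other thresholds, strands, annotation rules, single samples left out and copies left out. The labels do not say whether replicates came from separate cultures.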

Additional observations from a re-analysis of the deposited data

Results flagged for a closer look

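At 9 of the 166 antisense loci listed in all 3 samples (chromosome Y left out), log2 IP over input had one sign in SK-Mel-103 and the opposite sign in both UACC-62 samples. By bin the share was 5.95%, against 7.52% of all passing bins. The difference between the cell lines was not tested, as SK-Mel-103 had 1 IP sample. The widest was SORCS2 (1 bin, no other place), at -2.81 in SK-Mel-103 and 2.57 and 2.42 in UACC-62, with 4, 158 and 251 IP reads and 26, 23 and 28 input reads. USP33 (3 bins, over 20 other places) was at -0.25, 1.42 and 1.76. HTRA4, with over 20 other places, was at -0.085, 1.59 and 1.95, so its SK-Mel-103 value was near 0. GOSR1 was at -0.65, 0.15 and 0.64, and TRMT9B at -0.68, 0.23 and 0.57, both with over 20 other places. FBXO25, with 1 to 20 other places, was at -0.57, 0.22 and 0.30, and IKBKB, with a reverse rRNA run, at -0.50, 0.21 and 0.20. The opposite order was seen for SH3TC2, at 0.044, -1.16 and -0.80 with 726, 1027 and 1559 IP reads, and for MARF1, at 0.32, -0.07 and -0.53. SH3TC2 had over 20 other places, and its SK-Mel-103 value was near 0.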

How the results depend on the processing

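Of 135 recomputed values 68 moved by less than the spread taken for them, 67 moved by more and 0 changed sign. Most of these values are counts or percentages, which cannot change sign, so only the log2 medians could have done so. Taking only bins with a p-value under 0.01 changed no value, and those values are among the 68. Over 20 reads, 688 bins in 280 loci met the rule, and both numbers were counted among the 68. There SK-Mel-103 had a median log2 ratio of 0.56 and UACC-62 one of 1.27. The 298 bins left without UACC-62 replicate 3 were counted among the 67, so the labels do not follow the number of bins gained or lost. Over 100 reads, 141 bins in 67 loci were left, with medians of 4.15 and 3.29, 57.4% passing in all 3 samples, 53.2% intronic and 84.4% with sense reads. A pass in all 3 lists left 218 bins in 91 loci, with medians of 2.44 and 2.44. Read on the listed strand itself, 48910 bins in 4916 loci met the rule, with a UACC-62 median of 1.11, 1.72% intronic, 1.43% with sense reads and 2.04% with a GU-rich element. With no gene allowed within 1 kb, the medians were 1.01 and 1.84 and 10.4% of loci lay after a gene end. With coding genes alone as a block, 51.9% passed in all 3, the UACC-62 median was 1.72, 35.3% were intronic and 61.0% had sense reads. Without bins with another place, 187 bins were left, 34.2% passing in all 3, with medians of 2.55 and 2.03, 48.7% intronic and 70.1% with sense reads. A pseudocount of 0.5 read gave a UACC-62 median of 1.84, and raw reads gave 1.30 and 2.20. Loci after a gene end were 8.56% within 1 kb, 24.1% within 10 kb and 8.56% after coding genes alone. Sense reads in all 3 lists were found for 52.8%. GU-rich elements fell to 2.79% with 1 mismatch, 0.64% with none and 2.36% in the bin alone. Taking introns first gave 50.9%. Leaving out 1 sample at a time, with a pass needed in both others, gave 271 (without UACC-62 replicate 1) to 333 bins, 116 (without SK-Mel-103 replicate 1) to 130 loci, SK-Mel-103 medians of 1.09 (without UACC-62 replicate 3) to 3.13 (without UACC-62 replicate 1), UACC-62 medians of 1.88 to 2.54 and 34.2 to 48.7% intronic. Chosen after seeing the data, leaving out mitochondrial bins gave 53.5% in all 3, medians of 2.11 and 2.20 and 47.0% intronic. Leaving out ribosomal runs gave 42.0%, 0.18, 1.17, 30.7% and, for sense reads, 69.6%. Leaving out both left 277 bins, with medians of 0.73 and 1.84 and 63.5% with sense reads. The causes of these moves were not tested. Each IP was set against the input of its own list in every log2 ratio. No test was run, paired or unpaired, and the cell lines share a single replicate number.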
